A study of Mus musculus with 35 samples.

Results

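Oxidative phosphorylation genes were taken by symbol: the nuclear names built on Nduf, Sdh, Uqcr, Cyc1, Cycs, Cox4 to Cox8 and Atp5, and the protein-coding mt- genes of mitochondrial DNA. The rule found 99 of the 39109 entries of the count table, 86 nuclear and 13 mitochondrial. Among the nuclear members, 35 belong to complex I, 4 to complex II, 10 to complex III with its carrier cytochrome c, 19 to complex IV and 18 to complex V. The rule goes by name, so it takes in Atp5s, Atp5sl and Atp5l2, which share a stem without being established subunits of ATP synthase, and it leaves out Ndufab1, Atpif1 and Usmg5, which were counted with the assembly factors.

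The study sequenced polyadenylated RNA from the striatum of 35 mice, with 1 library per mouse, so replicates are separate animals. The 22 males and 13 females were 21.71 to 23 weeks old and were either Htt+/+ or heterozygous for HttQ111, a Huntington's disease knock-in allele with an expanded CAG repeat (110 to 144 units in these mice). The HttQ111 and D9-Cre lines were C57BL/6J. The floxed line began on a mixed background and its backcross to that strain was incomplete, so the mice may differ in genetic background. Hdac2 KO mice carry 2 floxed Hdac2 alleles and the D9-Cre transgene, in which a fragment of Ppp1r1b drives Cre in medium-spiny neurons (MSNs), by far the commonest striatal neuron, after 5 to 6 weeks of age. Hdac2 WT mice carry no Cre, but the study's sample table gives them floxed alleles as well, 1 in 2 of the Htt+/+ mice and 2 in all others, so Hdac2 deletion and the presence of Cre cannot be told apart. The groups were Htt+/+ Hdac2 WT (8 mice), HttQ111/+ Hdac2 WT (7 mice), Htt+/+ Hdac2 KO (9 mice) and HttQ111/+ Hdac2 KO (11 mice).

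The respiratory chain passes electrons from NADH and succinate through complexes I to IV to oxygen, and the proton gradient it builds drives ATP synthase, complex V. Most subunits come from nuclear genes and are imported, while a small core of complexes I, III, IV and V is transcribed from circular mitochondrial DNA as long transcripts of both strands that are then processed into single messengers. MSNs depend on this supply of ATP, and their sensitivity to inhibitors of complex II is a classical model of striatal degeneration.

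The deposited counts cover whole gene intervals, introns included, and came to 50970712 to 77867348 per library, with a median of 57322618. Levels below are CPM, counts relative to a library size scaled by TMM, a method that sets most genes to no change between libraries. Differences are log2 fold changes with their standard error (SE) from edgeR's quasi-likelihood test on all 35 libraries with surrogate variables, which are unmeasured factors estimated from the counts. A gene rose or fell where its p, adjusted by Benjamini-Hochberg over all genes tested, was under 0.05. Of the 86 nuclear members, 85 or 84 passed the count filter in each comparison. Of the 13 mitochondrial members 12 did, since mt-Atp8 is shorter than the length limit of 250 bases.

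Hdac2 itself (ENSMUSG00000019777) was measured over its whole interval and not over the floxed exons alone. Its CPM ran from 97.6 to 106 (lowest and highest) with a median of 104 in Htt+/+ Hdac2 WT mice and from 95.6 to 111 with a median of 105 in HttQ111/+ Hdac2 WT mice. In the Hdac2 KO groups it ran from 89.4 to 99.2 (median 94.4, Htt+/+) and from 89.8 to 101 (median 95.5, HttQ111/+). The difference between Hdac2 genotypes was -0.09 (SE 0.03, adjusted p = 0.0552) in Htt+/+ mice, which missed the threshold, and -0.12 (SE 0.03, adjusted p = 0.00198) in HttQ111/+ mice. Over the floxed exons alone the study reports a marked depletion of reads in the knockouts. It also reports that the protein could not be detected in most striatal cells of knockout mice.

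Some libraries stood apart from the rest of their group. Replicates 4 and 7 of HttQ111/+ Hdac2 KO had the highest shares of counts on nuclear members, 1.09% and 1.05%, against 0.865% to 0.962% in the other 3 groups. They also stood apart for short genes in general, whose median log2 deviation was 0.11 and 0.08, and for long genes, at -0.13 and -0.09. For nuclear members this deviation was 0.18 and 0.15 in them. It was 0.17 in replicate 9 of Htt+/+ Hdac2 WT, with 75 of 79 members above 0. The 4 cortical projection neuron markers (Slc17a7 the most abundant) summed to 411 CPM in replicate 7 of HttQ111/+ Hdac2 WT and to 126 and 160 CPM in replicates 2 and 6 of Htt+/+ Hdac2 KO. Choroid plexus and ependymal markers summed to 187 CPM in replicate 1 of Htt+/+ Hdac2 WT and to 135 CPM in replicate 1 of HttQ111/+ Hdac2 KO. Oligodendrocyte markers summed to 9699 CPM in replicate 1 of Htt+/+ Hdac2 KO. Each of these marker sums was the highest of its group, except the 126 CPM of cortical markers, which lay below the 160 CPM of the same group. MSN markers were present in all libraries: their summed CPM was 8038 to 9171 in Htt+/+ Hdac2 WT and 7550 to 8948 in Htt+/+ Hdac2 KO mice, and 5858 to 7915 in HttQ111/+ Hdac2 WT and 6633 to 8285 in HttQ111/+ Hdac2 KO mice, with Penk the most abundant of the 10 genes and none at 0. Ppp1r1b is among these markers, and the D9-Cre transgene holds some of its exons and introns. Reads of the transgene may therefore add to its counts in Hdac2 KO mice, which was not tested.

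The comparison of Htt+/+ Hdac2 KO with Htt+/+ Hdac2 WT mice asks what loss of Hdac2 in MSNs does to the members without the disease allele. Of 85 nuclear members tested, 19 fell and 2 rose, and the falls spread over all complexes while both rises were in complex I. They are small: the largest fall, of the complex I subunit Ndufs3, was -0.22 on the log2 scale. Among all 17126 genes tested, 17.8% were called, 8.79% as falls and 9.06% as rises. For the nuclear members the shares were 24.7%, 22.4% and 2.35%, differences that were not tested. Their median log2 fold change was -0.07, with 70 of 85 below 0, against a median of 0.00 (50.4% below 0) over all genes. In bulk tissue, fewer cells of a type and less RNA per cell cannot be told apart. From cell counts by immunostaining, the study reported no significant loss of MSNs with Hdac2 knockout.

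The same comparison among HttQ111/+ mice, HttQ111/+ Hdac2 KO against HttQ111/+ Hdac2 WT, compares other mice, although all 35 libraries enter the same fit. Of 84 nuclear members, 16 fell and 2 rose (21.4%), where all genes gave 16.5% calls, 8.86% falls and 7.68% rises. The median over the members was -0.04, with 61 of 84 below 0. Of the members called, 13 were called in both comparisons, which is 61.9% of the calls in Htt+/+ and 72.2% of those in HttQ111/+ mice. Over all genes called the shares were 63.9% and 68.7%. All 13 kept their direction, as did all 1952 genes called in both: 11 fell (among them Ndufs3, Ndufs7, Ndufs8, Ndufa13, Sdhb, Atp5a1 and Atp5b) and 2 rose (Ndufa8 and Ndufv3). Whether the effect of the knockout differs between the Htt genotypes was tested as an interaction, in which no member passed.

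**Figure D1:**
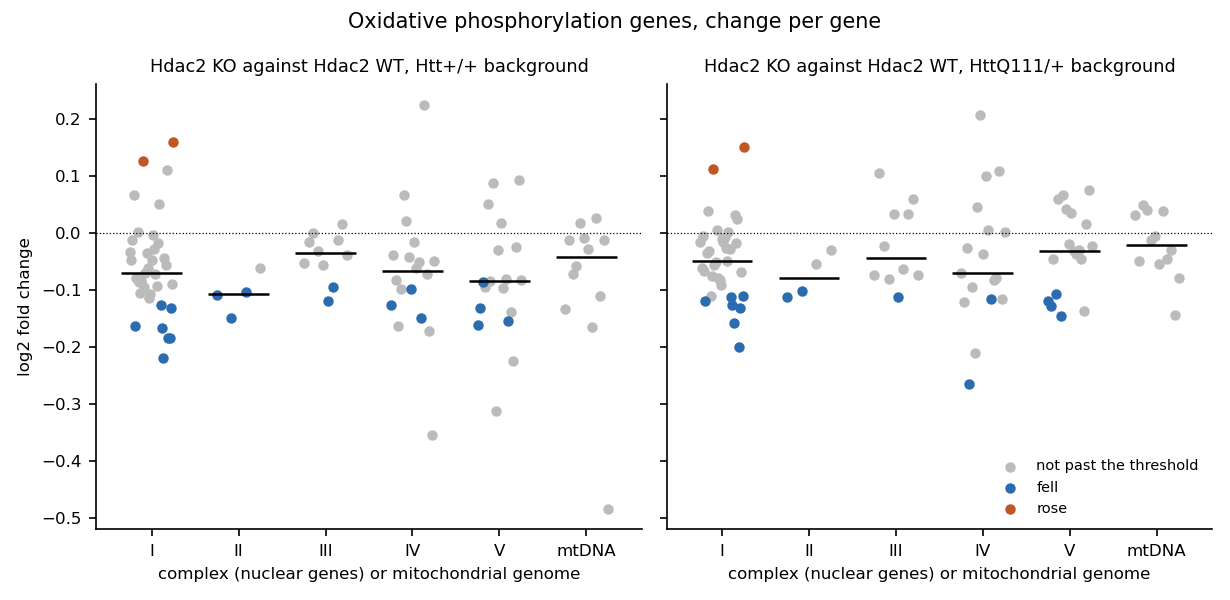
Log2 fold change of Hdac2 KO against Hdac2 WT for each member tested in Htt+/+ and in HttQ111/+ mice, by complex, with calls marked. Most nuclear members sit below 0 in both comparisons, with medians of -0.07 and -0.04, and no mitochondrial member is called, mt-Nd6 being the lowest point at -0.48 in Htt+/+ mice.

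In complex I, the NADH dehydrogenase, 7 of 35 nuclear members fell and 2 rose in each comparison (25.7%, against 17.8% of all genes in Htt+/+ and 16.5% in HttQ111/+ mice). Ndufs3 lies in the arm that takes electrons from NADH towards ubiquinone. In Htt+/+ mice it measured 43.7 to 49.6 CPM (median 48.0) with Hdac2 intact and 36.8 to 42.3 (median 39.6) in the knockouts, and in HttQ111/+ mice 39.0 to 47.5 (median 44.6) with Hdac2 intact and 34.8 to 43.8 (median 39.6) in the knockouts. The Htt+/+ groups did not overlap, and in HttQ111/+ mice the ranges overlapped although 11 of 11 knockout libraries were below the control median. Ndufs3 fell with a log2 fold change of -0.22 (SE 0.06, adjusted p = 0.00495) in Htt+/+ and -0.16 (SE 0.05, adjusted p = 0.0244) in HttQ111/+ mice. Of the 75-base windows of its transcripts, 27.1% also occur in the annotated transcript of Gm12251, and only unique alignments were counted.

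In Htt+/+ mice Ndufs3 is 1 of 7 members whose knockout libraries all lay below all control libraries, where 4.70% of all genes tested had groups that did not overlap. Sdha, Uqcrc1, Atp5a1 and Atp5f1 are among the others. In HttQ111/+ mice none of the 96 members tested had groups that did not overlap, against 1.43% of all genes.

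Ndufs7 and Ndufs8 carry iron-sulfur clusters in the same arm. Ndufs7 measured 55.8 to 62.4 CPM (median 60.7) against 50.9 to 58.6 (median 55.2) in the knockouts of Htt+/+ mice, and 51.2 to 63.2 (median 60.4) against 45.0 to 65.5 (median 54.8) in HttQ111/+ mice. The ranges overlap in both, and 9 of 9 and 9 of 11 knockout libraries were below the control median. Ndufs7 fell by 0.18 (SE 0.04, adjusted p = 0.00365) and by 0.20 (SE 0.04, adjusted p = 0.000532), and Ndufs8 by 0.18 (SE 0.04, adjusted p = 0.00313, 9 of 9) and by 0.13 (SE 0.04, adjusted p = 0.0154, 9 of 11). Ndufs1, the largest subunit of complex I, was named after its values were seen, as were Sdha, Sdhc, Uqcrc1, Uqcrc2, Cox6c, Cox7c, Cycs and Ndufb3 further on. Its CPM was 184 to 195 (median 189) in Htt+/+ Hdac2 WT and 161 to 178 (median 168) in Htt+/+ Hdac2 KO mice. It fell by 0.13 (SE 0.03, adjusted p = 0.00524, 9 of 9), and in HttQ111/+ mice by 0.11 (SE 0.03, adjusted p = 0.00491, 11 of 11).

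The 2 rises of complex I were Ndufa8, a subunit of its intermembrane-space side, and Ndufv3, an accessory subunit of the arm that binds NADH. Ndufa8 had 61.2 to 78.4 CPM (median 63.9) in Htt+/+ Hdac2 WT, 69.4 to 75.3 (median 72.2) in Htt+/+ Hdac2 KO, 60.3 to 69.1 (median 64.4) in HttQ111/+ Hdac2 WT and 64.5 to 88.1 (median 71.4) in HttQ111/+ Hdac2 KO. Apart from 1 control library at 78.4, the knockout libraries of Htt+/+ mice were the higher ones. Ndufa8 rose by 0.13 (SE 0.03, adjusted p = 0.00349, above the control median in 9 of 9 libraries) and by 0.11 (SE 0.03, adjusted p = 0.0033, 11 of 11). Ndufv3 went from a median of 50.3 CPM (48.8 to 61.3) to 58.9 (53.9 to 63.7) in Htt+/+ mice and from 51.6 (50.3 to 61.9) to 60.7 (52.2 to 66.5) in HttQ111/+ mice. The ranges overlap in both. It rose by 0.16 (SE 0.03, adjusted p = 0.00101, 9 of 9) and by 0.15 (SE 0.03, adjusted p = 0.00046, 11 of 11).

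Ndufa13 is a complex I subunit whose call in Htt+/+ mice rests on the surrogate variables. Its median CPM was 94.5 (88.5 to 103) in Htt+/+ Hdac2 WT against 92.5 (84.5 to 99.1) in Htt+/+ Hdac2 KO mice, and 93.2 (86.0 to 98.4) against 92.3 (77.1 to 103) in HttQ111/+ mice. The groups overlap almost wholly, and 6 of 9 and 6 of 11 knockout libraries were below the control median. The fitted difference was -0.16 (SE 0.03, adjusted p = 0.000321) in Htt+/+ and -0.12 (SE 0.03, adjusted p = 0.0027) in HttQ111/+ mice, and it was not called in Htt+/+ mice without surrogate variables.

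Complex II, succinate dehydrogenase, also a TCA cycle enzyme, has only nuclear subunits: 3 of its 4 members fell in Htt+/+ mice (Sdha, Sdhb and Sdhc) and 2 in HttQ111/+ mice (Sdha and Sdhb), where 17.8% and 16.5% of all genes were called. Sdha, the flavoprotein that oxidizes succinate, had 425 to 445 CPM (median 438) in Htt+/+ Hdac2 WT and 377 to 413 (median 395) in Htt+/+ Hdac2 KO, and 422 to 456 (median 437) against 388 to 434 (median 398) in HttQ111/+ mice. The Htt+/+ groups were fully apart. Sdha fell by 0.11 (SE 0.03, adjusted p = 0.00557, 9 of 9) and by 0.11 (SE 0.02, adjusted p = 0.00128, 11 of 11). The iron-sulfur subunit Sdhb had a median of 109 CPM (106 to 112) in Htt+/+ Hdac2 WT and 104 (98.1 to 109) in Htt+/+ Hdac2 KO mice, with overlap. Sdhb fell by 0.15 (SE 0.03, adjusted p = 0.000362, 9 of 9) and by 0.10 (SE 0.03, adjusted p = 0.00518, 9 of 11).

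In complex III, the cytochrome bc1 complex, the calls were its core proteins: Uqcrc1 and Uqcrc2 fell in Htt+/+ mice and Uqcrc1 in HttQ111/+ mice, of 10 members tested with cytochrome c (20% and 10%, beside 17.8% and 16.5% of all genes). Uqcrc1 had 170.1 to 181 CPM (median 173) in Htt+/+ Hdac2 WT and 159 to 163 (median 161) in Htt+/+ Hdac2 KO, with no overlap, and 167 to 185 (median 178) against 152 to 189 (median 163) in HttQ111/+ mice, where 2 knockout libraries were above all controls. It fell by 0.12 (SE 0.03, adjusted p = 0.00268, 9 of 9) and by 0.11 (SE 0.02, adjusted p = 0.00181, 9 of 11). Uqcrc2 fell by 0.09 in Htt+/+ mice (SE 0.03, adjusted p = 0.0164, 9 of 9).

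In complex IV, cytochrome c oxidase, Cox4i1, Cox6c and Cox7b fell in Htt+/+ mice (3 of 18 tested, 16.7%, where 17.8% of all genes were called) and Cox5b and Cox7a2l in HttQ111/+ mice (2 of 17, 11.8%, against 16.5%). For none of the 5 was the interaction called, with unadjusted p from 0.101 to 0.260 and adjusted p from 0.884 to 0.932, so a difference between the Htt genotypes was not shown. Cox5b, a subunit on the matrix side, had 53.1 to 73.0 CPM (median 62.2) in Htt+/+ Hdac2 WT, 49.5 to 67.5 (median 58.1) in Htt+/+ Hdac2 KO, 53.4 to 67.1 (median 62.7) in HttQ111/+ Hdac2 WT and 46.6 to 65.7 (median 54.8) in HttQ111/+ Hdac2 KO. All 4 groups overlap. In HttQ111/+ mice it fell by 0.26 (SE 0.06, adjusted p = 0.0029, 10 of 11), the largest fall of any member there.

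The other complex IV calls come from groups that overlap. Cox4i1, the general isoform of subunit IV, had a median of 355 CPM (336 to 421) in Htt+/+ Hdac2 WT and 353 (323 to 385) in Htt+/+ Hdac2 KO mice. Only 5 of 9 knockout libraries were below the control median, beside a fitted fall of 0.13 (SE 0.03, adjusted p = 0.00691) that was not called without surrogate variables. Cox7b had a median of 119.9 CPM (107 to 141) against 110.3 (105 to 120.2), 8 of 9 below the control median, and fell by 0.15 (SE 0.04, adjusted p = 0.00622). Cox7a2l, which helps join complexes III and IV into larger assemblies, had a higher median in HttQ111/+ Hdac2 KO (103 CPM) than in HttQ111/+ Hdac2 WT mice (102 CPM), with 5 of 11 knockout libraries below the control median. Its fitted value was -0.12 (SE 0.03, adjusted p = 0.0193) with surrogate variables and 0.03 (adjusted p = 0.922) with extraction date in their place.

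Complex V makes the ATP, and 4 of its 18 members fell in each comparison (22.2%, beside 17.8% and 16.5% of all genes), Atp5a1 and Atp5b in both. Atp5a1, the alpha subunit of the catalytic head, had 930.4 to 967 CPM (median 944) in Htt+/+ Hdac2 WT and 784 to 860.1 (median 819) in Htt+/+ Hdac2 KO, and 894 to 989 (median 945) against 791 to 959 (median 856) in HttQ111/+ mice. The Htt+/+ groups do not overlap, while the HttQ111/+ groups do. Atp5a1 fell by 0.16 (SE 0.03, adjusted p = 4.98e-05, 9 of 9) and by 0.12 (SE 0.02, adjusted p = 0.000675, 9 of 11).

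Atp5b, the catalytic beta subunit, had 1173 to 1350 CPM (median 1225) in Htt+/+ Hdac2 WT and 1092 to 1198 (median 1137) in Htt+/+ Hdac2 KO, and 1195 to 1272 (median 1251) against 1107 to 1273 (median 1152) in HttQ111/+ mice. In Htt+/+ mice the groups overlap at their ends, and in HttQ111/+ mice the range of the knockouts takes in that of the controls. It fell by 0.13 (SE 0.03, adjusted p = 0.000934, 9 of 9) and by 0.13 (SE 0.02, adjusted p = 0.000356, 10 of 11). Atp5f1, a subunit of the stalk that holds the head, had 150 to 166 CPM (median 156) against 135 to 147 (median 144) in Htt+/+ mice, where the groups did not overlap but the fitted difference was not called, and 151 to 169 (median 159.8) against 131 to 172 (median 139.7) in HttQ111/+ mice, where it fell by 0.15 (SE 0.04, adjusted p = 0.0047, 9 of 11). Atp5k fell by 0.15 in Htt+/+ mice (SE 0.05, adjusted p = 0.0418, 7 of 9) from overlapping levels.

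**Figure D2:**
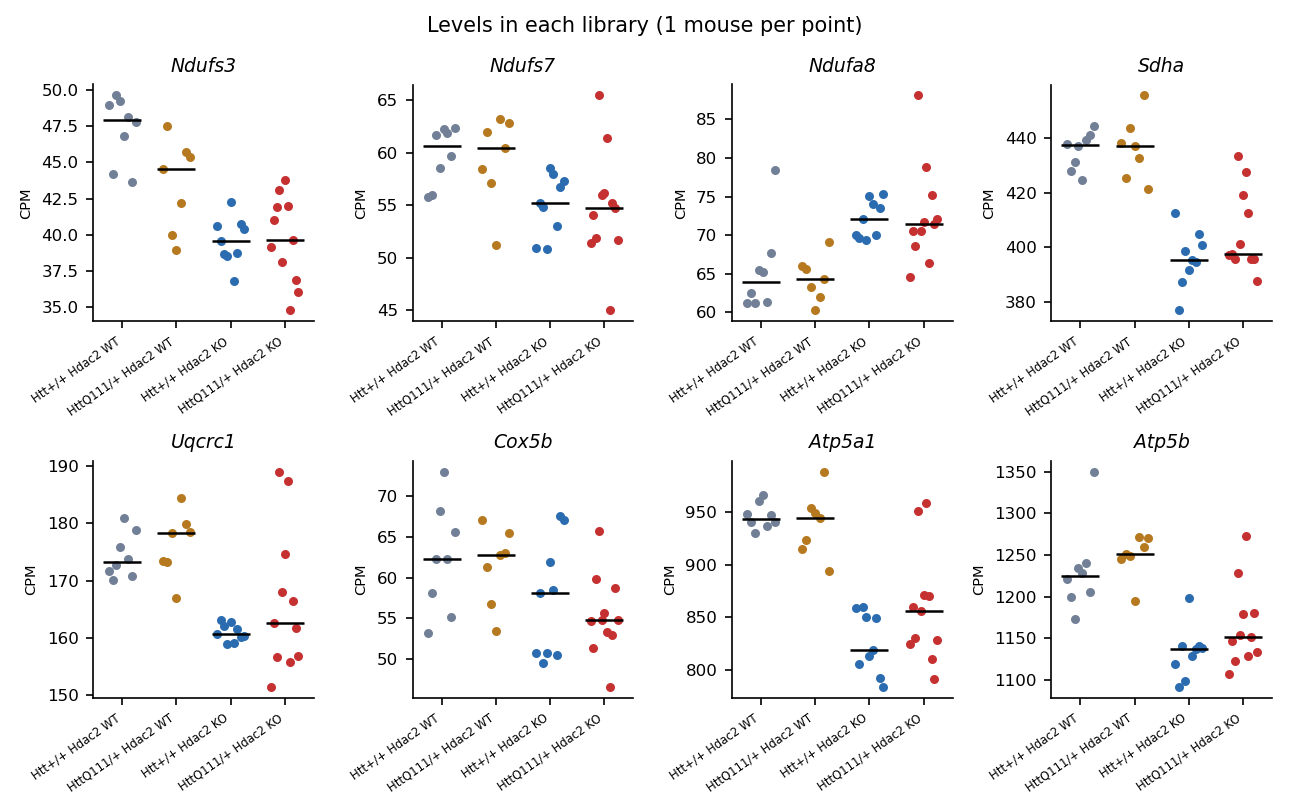
CPM of 8 members of complexes I to V in each of the 35 libraries, by group, with the median of each group as a bar. In Htt+/+ mice the Atp5a1 libraries of the knockouts (784 to 860.1 CPM) lie below all controls (930.4 to 967 CPM), while Cox5b shows overlapping groups.

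Calls were more frequent among abundant members, as among all genes. In Htt+/+ mice 10 of the 18 nuclear members with an average log2 CPM over 7 were called, 7 of 28 between 6 and 7, 4 of 22 between 5 and 6 and 0 of 17 under 5, rises included, where edgeR gave 34.0%, 25.3%, 20.7% and 13.4% calls among all genes of these levels. Most members span short genomic intervals (74 of 86 up to 20 kb). In that comparison 2 of 30 nuclear members up to 5 kb fell (4.70% of all genes of that span), 12 of 43 from 5 to 20 kb (8.65%), 5 of 9 from 20 to 100 kb (10.1%) and 0 of 3 over 100 kb (11.5%).

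Extraction dates nearly follow the Hdac2 genotype, and only 25 and 27 May hold libraries of both. On 27 May the single Htt+/+ Hdac2 KO library lay below all 3 Htt+/+ Hdac2 WT libraries for 13 of the 19 genes that fell, where 74.3% of all genes that fell did, and above all 3 for 3 of them. Both that rose were above all 3. On 25 May the single HttQ111/+ Hdac2 KO library lay below both HttQ111/+ Hdac2 WT libraries for 11 of the 16 genes that fell (66.4% of all genes that fell), and it was below their median for the 2 that rose. These libraries are part of the fits that called the genes, so the counts describe the values within a date and are no separate test. The knockout and control libraries compared also differ in ID series, the letter that opens the mouse ID. On 27 May series Z stood against V, and on 25 May series A against V and Z. With date in place of the surrogate variables, 2 nuclear members were called in Htt+/+ mice (Atp5a1 among them) and 0 in HttQ111/+ mice, where 4.80% and 1.93% of all genes were. Without the 2 control mice with 1 floxed allele the count in Htt+/+ mice was 42 (22.4% of all genes called), and without replicates 4 and 7 of HttQ111/+ Hdac2 KO the count in HttQ111/+ mice was 28 (17.7% of all genes called).

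The comparison of HttQ111/+ Hdac2 KO with Htt+/+ Hdac2 WT mice shares its controls with the Htt+/+ comparison, so its values are given side by side and not as a second finding. In it 18 nuclear members fell and 2 rose (23.5%), with 21.2% of all genes called, 11% as falls and 10.2% as rises. The count of 20 was 3 with date in place of surrogate variables, 8 with sex, 10 with ID series (A, V or Z, the letter that opens the mouse ID) and 11 with none, and 13 with males only or with library size alone. The share of all genes called in these settings is not given beside the counts, so they do not show a change particular to the members. Ndufs3 stood at -0.24 (SE 0.05, adjusted p = 0.000821), Ndufs7 at -0.20 (SE 0.04, adjusted p = 0.000589), Atp5a1 at -0.16 (SE 0.03, adjusted p = 2.37e-05) and Ndufv3 at 0.20 (SE 0.03, adjusted p = 2.77e-05). The complex I subunit Ndufb3 and the complex IV subunit Cox5b passed narrowly, at -0.12 (adjusted p = 0.0484) and -0.18 (adjusted p = 0.0466).

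The HttQ111 allele itself is compared at each Hdac2 genotype. No nuclear or mitochondrial member was called for HttQ111/+ against Htt+/+ among Hdac2 WT mice by edgeR, where 0.403% of all genes were. At an unadjusted p under 0.05 there were 3 nuclear and 3 mitochondrial members (10.9% of all genes), and DESeq2 called 0. Those nuclear members were Cox7c at -0.17, the electron carrier Cycs at -0.14 and the muscle isoform Cox6a2 at 0.31 (adjusted p = 0.305, 0.409 and 0.386). Among Hdac2 KO mice edgeR also called 0 of 84 nuclear and 0 of 12 mitochondrial members (0.00584% of all genes), with 4 and 5 at an unadjusted p under 0.05 (7.52% of all genes) and 0 by DESeq2. The interaction of both alleles gave 0 as well (0.00577% of all genes), with 2 and 1 members at an unadjusted p under 0.05 (5.63% of all genes) and 0 by DESeq2.

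Of 10 MSN markers, 5 fell with the HttQ111 allele among Hdac2 WT mice by edgeR (0.403% of all genes called), and among Hdac2 KO mice 0 were called, with 7 at an unadjusted p under 0.05. With Hdac2 loss, 2 MSN markers rose and 2 fell in Htt+/+ mice (17.8% of all genes called), and 2 rose and 0 fell in HttQ111/+ mice (16.5%). For the marker Ppp1r1b, reads of the D9-Cre transgene may add to the counts of Hdac2 KO mice. The summed CPM of other markers had medians of 127 in Htt+/+ Hdac2 WT and 148 in Htt+/+ Hdac2 KO mice (endothelial), 157 and 182 (mural), 372 and 407 (microglia), 82.2 and 90.0 (oligodendrocyte precursor), 32.0 and 11.7 (choroid plexus and ependymal), 24.1 and 14.4 (cortical), 4.07 and 5.10 (striated muscle), 299.6 and 302 (interneuron), 1708 and 1708 (astrocyte) and 6876 and 6863 (oligodendrocyte). In HttQ111/+ mice the medians were, in the same order of lists, 129 and 132.5, 161 and 179.7, 356 and 369.7, 87.8 and 89.1, 30.15 and 23.1, 22.1 and 16.5, 3.81 and 5.04, 295 and 287, 1605 and 1612, and 6216 and 6857. The ranges of the Hdac2 genotypes overlap for each list. By single gene, 1 of 6 astrocyte, 1 of 7 interneuron and 1 of 4 choroid plexus and ependymal markers fell in Htt+/+ mice, where 17.8% of all genes were called, and 1 astrocyte marker in HttQ111/+ mice, where 16.5% were. EdgeR called 0 oligodendrocyte, precursor, microglia, endothelial, mural, cortical or striated muscle markers in either, with at most 1 of any list at an unadjusted p under 0.05. What these cells add to the values of the members was not tested.

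The mitochondrial-encoded genes take up a far larger share of the libraries than all nuclear members together. The 12 of them kept made up 6.14% to 10.4% of counts (median 7.65%) in Htt+/+ Hdac2 WT, 7.02% to 9.57% (median 8.22%) in HttQ111/+ Hdac2 WT, 7.01% to 11.1% (median 8.71%) in Htt+/+ Hdac2 KO and 7.25% to 10.5% (median 8.66%) in HttQ111/+ Hdac2 KO mice. The groups overlap widely. The nuclear members held medians of 0.920%, 0.934%, 0.887% and 0.895% in the same order.

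None of the 12 was called in any comparison by edgeR or DESeq2 in the fit with all libraries and surrogate variables. In Htt+/+ mice 3 were called without the 2 mice with 1 floxed allele, 1 with date in place of surrogate variables (mt-Nd5 at 0.67, adjusted p = 0.0424, against -0.01), 1 without replicates 4 and 7 of HttQ111/+ Hdac2 KO and 1 without series A. For HttQ111 among Hdac2 WT mice 1 was called without the mice with 1 floxed allele and 1 without series A, and for HttQ111/+ Hdac2 KO against Htt+/+ Hdac2 WT 1 with only their own libraries. Shares of all genes called are not given beside these counts, which therefore do not show a change particular to the mitochondrial members. With Hdac2 loss in Htt+/+ mice their median log2 fold change was -0.04, with 10 of 12 below 0 and 1 at an unadjusted p under 0.05 (mt-Nd3 at -0.16, SE 0.07, adjusted p = 0.0914), and in HttQ111/+ mice -0.02 with 0. The lowest value in Htt+/+ mice was mt-Nd6 at -0.48 (SE 0.25, adjusted p = 0.208), although its CPM was above the control median in 6 of 9 knockout libraries. These medians depend on the scaling and covariates: with library size alone they were 0.00 and 0.00, and with date in place of surrogate variables 0.40 and 0.38. The lowest medians of any setting were -0.12 and -0.06. In Htt+/+ mice the mitochondrial members that fell outnumbered those that rose in 3 settings. For HttQ111/+ against Htt+/+ among Hdac2 KO mice all 12 values were above 0, from 0.06 to 0.18, with mt-Nd4l the highest (SE 0.06, adjusted p = 0.284). The levels show little of this: mt-Nd4l had 107 to 194 CPM (median 134) in Htt+/+ Hdac2 KO and 88.2 to 196 (median 141) in HttQ111/+ Hdac2 KO mice, with 7 of 11 libraries above the control median. For mt-Nd1 and mt-Nd5, 8 of 11 were below the control median, for mt-Nd2 7, and for mt-Co1, mt-Nd4 and mt-Cytb 6. The remaining members had more libraries above it than below.

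The mitochondrial values differ by the letter that opens the mouse ID, which the labels do not explain. Among HttQ111/+ mice the series coincides with repeat length: each series V mouse had a longer CAG repeat than any mouse of series A or Z. Series V mice were also older than those of series Z. Whether repeat length or age accounts for these values was not tested. The share of counts was 8.22% to 9.31% in the 8 libraries of series A, 6.14% to 8.66% in the 16 of series V and 8.22% to 11.1% in the 11 of series Z. All 4 groups hold mice of each series, in unequal numbers: Htt+/+ Hdac2 WT has 5 of its 8 in V and 1 in Z, and Htt+/+ Hdac2 KO has 3 of 9 in V and 5 in Z. With Hdac2 loss in Htt+/+ mice the median share within series was 8.24% against 8.55% (A), 6.79% against 7.11% (V) and 10.4% in the single control against 9.31% (Z). In HttQ111/+ mice it was 8.86% against 8.70% (A), 7.42% against 7.71% (V) and 8.89% against 9.62% (Z), so the direction is not the same in all series.

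mt-Nd6 is the only protein-coding gene on the other strand of mitochondrial DNA, and it set series A apart, while V and Z overlap. Its CPM was 77.6 to 149 (median 119) in series A, 20.6 to 70.2 (median 28.5) in V and 27.4 to 56.0 (median 38.5) in Z, so that all series A libraries lay above all others. By genotype the medians were 30.4 in Htt+/+ Hdac2 WT, 28.2 in HttQ111/+ Hdac2 WT, 38.5 in Htt+/+ Hdac2 KO and 45.1 in HttQ111/+ Hdac2 KO, inside ranges that overlap almost completely. What the series stand for was not tested.

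**Figure D3:**
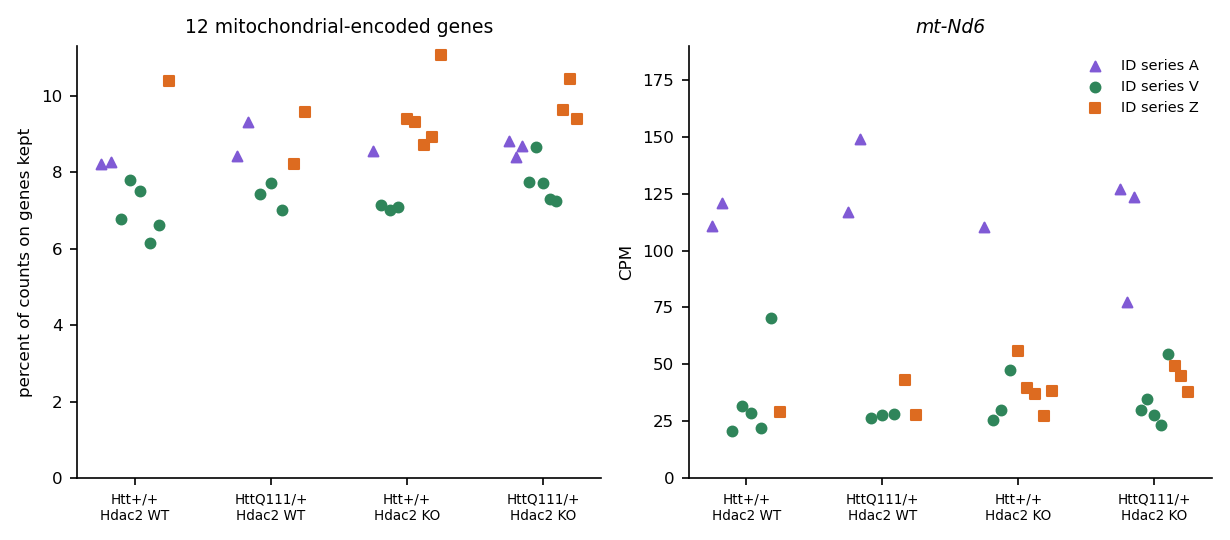
Share of counts on the 12 mitochondrial-encoded genes kept (left, percent of counts on genes kept) and CPM of mt-Nd6 (right) for each library, by group, with markers and colors for the mouse ID series. Series A lies highest for mt-Nd6 (77.6 to 149 CPM) in each group, and series V lowest for the share (6.14% to 8.66%).

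Levels of different genes are given per kilobase, which does not correct for reads that could not be placed uniquely. Among mitochondrial genes, CPM per kb of gene ran from 104 for mt-Nd6 to 18783 for mt-Co1, followed by mt-Cytb at 13892, mt-Nd1 at 11728 and mt-Nd2 at 7746. The neighbours mt-Co2 at 1203, mt-Atp6 at 1328, mt-Co3 at 871, mt-Atp8 at 767, mt-Nd4l at 455 and mt-Nd3 at 285 were far lower, although they are read from the same strand as mt-Co1. Of the 75-base windows of mt-Co2, mt-Atp6, mt-Co3, mt-Nd3 and mt-Nd4l, 97.8% to 99.9% also occur in another annotated transcript, and only unique alignments were counted. The share was 61.5% for mt-Nd4, 39.8% for mt-Co1 and 0 for mt-Atp8. Only annotated transcripts were searched, so these shares are lower bounds, and the level of such a gene describes only the reads that could be placed uniquely.

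Annotated copies of 7 mitochondrial genes lie side by side on chromosome 1, at chr1:24611535-24616197 on the minus strand (GRCm38). Aligned over 681 bases, mt-Co2 and Gm28661 differ at 0 positions, as do mt-Atp6 and Gm10925 over 678, mt-Co3 and Gm28437 over 783, mt-Nd4l and Gm10222 over 294, and mt-Nd4 and Gm28439 over 876. Gm29216 differs from mt-Co1 at 6 of 492 bases. Gm28438 differs from mt-Nd3 at 1 of 345 bases. The stretch around that base is printed from the GRCm38 transcripts because it is where a read can tell gene and copy apart, with the differing base in capitals, from chrM:9459-9488 (plus strand) and chr1:24613090-24613119 (minus strand).
mt-Nd3: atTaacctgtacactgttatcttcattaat
Gm28438: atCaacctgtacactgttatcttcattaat

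**Figure D4:**
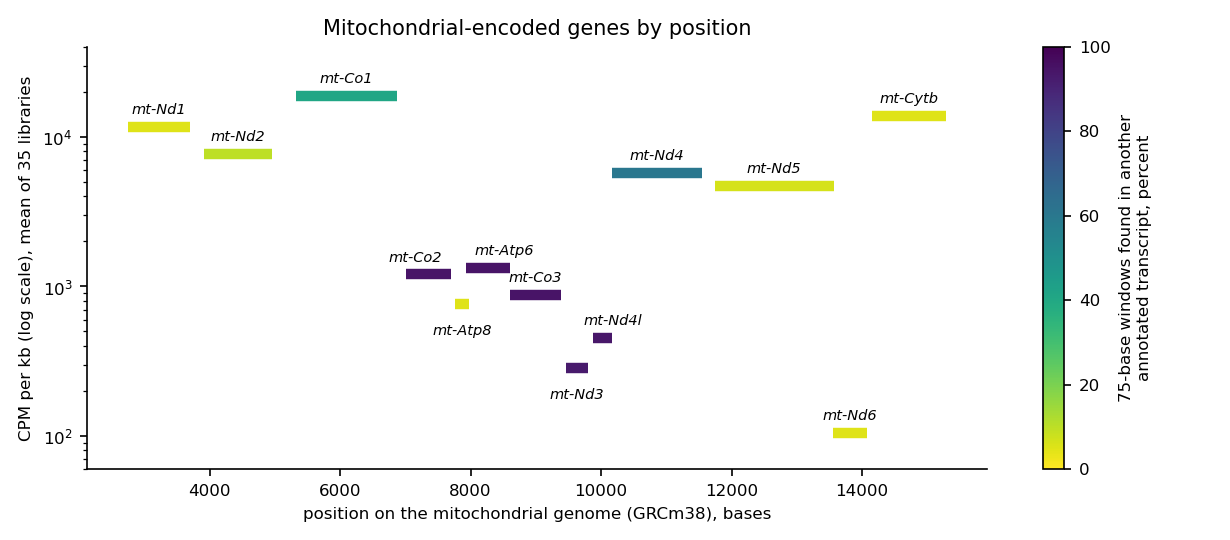
Positions of the 13 mitochondrial-encoded genes with CPM per kb on a log axis, colored by the percent of 75-base windows found in another annotated transcript. mt-Co2 to mt-Nd4l, with up to 99.9% of windows shared, sit between 285 and 1328 CPM per kb, below mt-Co1 at 18783.

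Per kilobase of exonic length, 85 nuclear members ran from 0.007 to 620 CPM, with a median of 68.6, although the counts also cover introns. The highest were Atp5b at 620, Cox4i1 at 470, Cox8a at 352, Cox6a1 at 315, Atp5a1 at 305 and Atp5g3 at 285. By complex the medians were 62.8 (I), 79.5 (II), 84.5 (III), 89.1 (IV) and 82.8 (V). Another gene overlaps 25 of the nuclear members, 10 of them on the same strand, such as Yjefn3 over Ndufa13 and Gm20388 over Cox4i1, so counts over whole intervals may include reads of both.

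Several subunits have isoforms from separate genes, and striatum showed the general ones. The isoforms known from lung, muscle, heart or testis were low: median CPM in Htt+/+ Hdac2 WT mice was 3.89 for Cox6a2, 2.46 for Cox4i2, 1.68 for Cox6b2, 0.562 for Cox7a1, 0.373 for Cox7b2 and 0.234 for Cox8b, and the median of Cox8c was 0 in each group. Of these 7 genes 6 were tested in Htt+/+ mice and 5 in HttQ111/+ mice, and edgeR called 0 with 0 at an unadjusted p under 0.05 in both. The c subunit of ATP synthase, which forms the rotor ring, is encoded by 3 genes that make the same mature protein: mean CPM was 206 for Atp5g3, 38.0 for Atp5g1 and 0.339 for Atp5g2. Per kb of exonic length they stood at 285, 7.73 and 0.203, but that length is 724 bases for Atp5g3 and 4912 for Atp5g1, whose coding parts are 423 and 408. Of the windows of Atp5g2, 35.8% also occur in another annotated transcript.

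Promoters were read from RefSeq (GRCm38.p6), as 250 bases before to 50 after the start, for 70 of the 86 nuclear members (76 promoters). They were searched on both strands for CGCATGCG (core of the NRF1 motif), CCGGAAGT (ETS motif of GABP) and AAGATGGC (YY1). Of the 70 members 10 held the first (14.3%, against 2.07% of the genes of all promoters), 5 the second (7.14% against 4.31%) and 11 the third (15.7% against 3.19%), with 24 holding any (34.3% against 9.03%). Of the 76 promoters, 61 end inside an annotated transcript of their gene on the same strand. A match is a description of letters and marks no bound site.

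Of the 26 members called in either comparison of Hdac2 genotypes, 6 had a match, and 18 members with a match were not called. The windows of the called genes are shown because they let the falling and rising genes be read side by side, with the motif in capitals and the sense strand of each gene written out. The windows are chr2:90904703-90904732 (minus) for Ndufs3, chr10:80249462-80249491 (plus) for Ndufs7, chr9:108936668-108936697 (plus) for Uqcrc1, chr5:108434430-108434459 (minus) for Atp5k, chr3:105959248-105959277 (minus) for Atp5f1 and chr2:36049329-36049358 (minus) for Ndufa8. The NRF1 core stands in Uqcrc1 and Atp5k, which fell, and in Ndufa8, which rose. The GABP motif stands on the reverse strand in Ndufs3, and the YY1 motif forward in Ndufs7 and reversed in Atp5f1.
Ndufs3: tgcacatttccACTTCCGGtccgtgccctt
Ndufs7: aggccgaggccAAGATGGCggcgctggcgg
Uqcrc1: actccgctctgCGCATGCGcagcgcggctc
Atp5k: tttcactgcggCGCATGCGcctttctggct
Atp5f1: atgtgcgagcgGCCATCTTgctcctgcccc
Ndufa8: gtcgctggagaCGCATGCGcagatggtacc

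Genes that serve the chain were counted from lists outside the membership rule. Among 45 assembly factors, 6 fell and 1 rose in Htt+/+ mice and 5 fell in HttQ111/+ mice, or 15.6% and 11.1%, under the 17.8% and 16.5% of all genes. Atpaf1, which helps assemble the catalytic head of ATP synthase, measured 27.2 to 35.8 CPM (median 30.6) against 21.9 to 25.3 (median 24.0) in the knockouts of Htt+/+ mice, and 28.1 to 33.8 (median 29.6) against 22.8 to 27.0 (median 24.1) in HttQ111/+ mice. The Hdac2 genotypes did not overlap in either comparison. Atpaf1 fell by 0.40 (SE 0.05, adjusted p = 2.68e-07, 9 of 9) and by 0.31 (SE 0.04, adjusted p = 3.37e-06, 11 of 11), more than any member called. Ttc19 and Lyrm7, which act in complex III assembly, fell by 0.24 and 0.33 in Htt+/+ mice (adjusted p = 4.16e-05 and 0.000159, 9 of 9 each) and by 0.17 and 0.25 in HttQ111/+ mice (adjusted p = 0.000731 and 0.00072, 11 of 11 each).

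Among 13 nuclear regulators of mitochondrial genes, 2 fell in each comparison (15.4%, beside 17.8% and 16.5% of all genes): the nuclear receptor Esrra and the coactivator Ppargc1b. Esrra had 50.1 to 60.8 CPM (median 53.5) in Htt+/+ Hdac2 WT, 39.5 to 53.7 (median 44.9) in Htt+/+ Hdac2 KO, 43.0 to 53.7 (median 49.6) in HttQ111/+ Hdac2 WT and 37.7 to 48.5 (median 45.6) in HttQ111/+ Hdac2 KO. Within each Htt genotype the groups overlap. Esrra fell by 0.33 (SE 0.05, adjusted p = 2.55e-05, 8 of 9) and by 0.24 (SE 0.05, adjusted p = 0.000459, 11 of 11), and Ppargc1b by 0.32 (SE 0.07, adjusted p = 0.00203, 9 of 9) and by 0.19 (SE 0.06, adjusted p = 0.0406, 10 of 11). Of 17 genes of mitochondrial DNA expression and copy, 3 fell in Htt+/+ mice (Mtpap, Peo1 and Mterfd3) and 1 in HttQ111/+ mice (Mtpap, by 0.13, SE 0.04, adjusted p = 0.0154, 10 of 11), which is 17.6% and 5.88%.

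The TCA cycle feeds the chain with NADH and succinate, and of its 18 genes 3 fell and 1 rose in Htt+/+ and 4 fell and 1 rose in HttQ111/+ mice, or 22.2% and 27.8% where all genes gave 17.8% and 16.5%. The subunits of 1 enzyme, isocitrate dehydrogenase, moved apart: Idh3b fell by 0.17 (SE 0.03, adjusted p = 4.81e-05, 9 of 9) and by 0.14 (SE 0.02, adjusted p = 9.35e-05, 11 of 11), while Idh3a rose by 0.14 (SE 0.03, adjusted p = 0.000339, 8 of 9) and by 0.11 (SE 0.02, adjusted p = 0.000979, 6 of 11). For Idh3a the HttQ111/+ medians were nearly equal, 189.5 CPM with Hdac2 intact and 189.6 in the knockouts, and the value was -0.02 (adjusted p = 0.919) with date in place of surrogate variables.

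Of the 6 carriers and channels that move ADP, ATP and phosphate, 4 fell in Htt+/+ mice (66.7%) and 2 in HttQ111/+ mice (33.3%), with 17.8% and 16.5% for all genes. The ADP/ATP carrier Slc25a5 had 150.2 to 169 CPM (median 162) against 124 to 143 (median 137) in Htt+/+ mice and 155 to 164 (median 159) against 127 to 162 (median 147) in HttQ111/+ mice. The Htt+/+ groups were apart. It fell by 0.18 (SE 0.04, adjusted p = 0.000405, 9 of 9) and by 0.11 (SE 0.03, adjusted p = 0.017, 9 of 11). The outer-membrane channel Vdac1 fell by 0.13 (SE 0.03, adjusted p = 0.00428, 9 of 9) and by 0.09 (SE 0.03, adjusted p = 0.0342, 11 of 11). Of 76 mitochondrial ribosomal proteins, 10 fell and 1 rose in Htt+/+ mice (14.5%) and 2 fell and 1 rose in HttQ111/+ mice (3.95%), both under the 17.8% and 16.5% of all genes.

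For HttQ111/+ Hdac2 KO against Htt+/+ Hdac2 WT mice the share of all genes called was 21.2%. The same lists gave 7 falls and 1 rise (assembly factors, 17.8%), 2 falls each (mitochondrial DNA expression, 11.8%, and regulators, 15.4%), 3 falls and 1 rise (TCA cycle, 22.2%), 3 falls of 6 (carriers and channels, 50%) and 9 falls and 2 rises (mitoribosome, 14.5%). For the HttQ111 allele at either Hdac2 genotype and for the interaction, edgeR called 0 genes of these lists, while at an unadjusted p under 0.05 the assembly factors, for example, held 2, 3 and 1.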

How the data were processed

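The authors deposited counts per gene for 35 libraries of mouse striatum. Per the submitters' processing notes, 75-base paired reads were aligned with GSNAP to GRCm38, and unique alignments over whole gene intervals were counted with bedtools. The use of strand in counting is not stated. The authors had removed 1 further Htt+/+ Hdac2 WT library. The 92 ERCC spike-ins, 6152 genes of at most 250 bases and 2 mitochondrial rRNA genes were left out, and genes with at least 6 counts in each library of a group of the comparison were tested. Counts, 50970712 to 77867348 per library, were scaled by TMM and fitted with edgeR 4.0.16 (quasi-likelihood, R 4.3.3) with 9 surrogate variables from sva 3.50.0, and p was adjusted by Benjamini-Hochberg. The common biological coefficient of variation was 0.0689. The fit was also run on simulated counts that held no effect of extraction date or other hidden factor, so that run does not test for those. Alternatives used other covariates, libraries or scaling, and DESeq2 1.42.0. Named genes are the 13 mitochondrial members, up to 8 rises and falls per comparison whose average log2 CPM reaches 1, the isoform genes and 3 genes of each other list with the smallest p, plus those the report says were chosen after their values were seen. A member that this rule gives is not reported here. The members and lists were chosen with earlier results of these data known. Shared windows and copies were read from GENCODE M21 transcripts, and promoters from RefSeq GRCm38.p6. Figures used Python 3.11.15 and matplotlib 3.10.9.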

Additional observations from a re-analysis of the deposited data

Results flagged for a closer look

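A library was set apart where its distance to the next value, as a share of the range of its group, passed the limit for a group of that size. The rule was applied to 84 groups over 28 values, and chance alone flags about 1 in 20 groups. Groups of more than 10 are not covered by it, so HttQ111/+ Hdac2 KO, with 11 mice, was left out. It found 10 values, in 7 libraries.

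Replicate 9 of Htt+/+ Hdac2 WT was the highest of its group for 4 of them: Atp5b at 1350 CPM (next 1241), mt-Nd1 at 15780 (next 11510), Ndufa8 at 78.4 (next 67.8) and Ndufv3 at 61.3 (next 54.4). It is the only mouse of ID series Z in its group, and whether the series accounts for its values was not tested.

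Atp5b was also lowest by far in replicate 4 of HttQ111/+ Hdac2 WT, at 1195 CPM (next 1245), and highest in replicate 5 of Htt+/+ Hdac2 KO, at 1198 (next 1141). Atp5f1 was lowest in replicate 7 of Htt+/+ Hdac2 KO, at 135 CPM (next 142). Ndufs8 was highest in replicate 7 of HttQ111/+ Hdac2 WT, at 58.4 CPM (next 53.7). In Htt+/+ Hdac2 KO mice, mt-Nd4l was highest in replicate 9, at 194 CPM (next 147), and mt-Nd6 in replicate 1, at 111 CPM (next 56.0), the only series A mouse of that group.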

How the results depend on the processing

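Besides the fit reported, 14 planned settings and 3 added after seeing the data were run for each comparison (13 planned for the interaction, which could not be run with only the libraries of 2 groups). Counts of members called are given below without the share of all genes called in the same setting. Such counts do not show a change particular to the members. Nuclear members that fell outnumbered those that rose in 17 of 17 settings in Htt+/+ mice, 16 of 17 in HttQ111/+ mice and 17 of 17 for HttQ111/+ Hdac2 KO against Htt+/+ Hdac2 WT. Their medians ran from -0.10 to -0.03, from -0.07 to 0.01 and from -0.08 to 0.01. Of 81 named gene results past the threshold, 13 stayed past it in each setting, among them Atp5a1 (Htt+/+ mice and HttQ111/+ Hdac2 KO against Htt+/+ Hdac2 WT) and Ndufs3 (the latter). Of 168 not past it, 146 passed in no setting.

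Nuclear members called in Htt+/+ mice were 2 with extraction date in place of surrogate variables and 42 without the 2 mice with 1 floxed allele. In HttQ111/+ mice they were 9 with no surrogate variables, 9 with sex, 0 with date, 11 with ID series and, added after seeing the data, 28 without 2 HttQ111/+ Hdac2 KO libraries. For HttQ111/+ Hdac2 KO against Htt+/+ Hdac2 WT they were 11 with no surrogate variables, 8 with sex, 3 with date, 10 with ID series, 13 with males only and 13 with library size alone. For HttQ111 among Hdac2 WT mice they were 2 without ID series A, a setting added after seeing the data. The cause was not tested.

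With the replicate block, nuclear calls were 2 in HttQ111/+ mice and 7 for HttQ111/+ Hdac2 KO against Htt+/+ Hdac2 WT. Libraries of the same number in different groups had correlations of -0.273 to 0.406 (median 0.039, 45 pairs), so the numbers do not pair mice. The cause was not tested.

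Mitochondrial members called were, in Htt+/+ mice, 1 with date, 3 without the mice with 1 floxed allele, and in added settings 1 without 2 HttQ111/+ Hdac2 KO libraries and 1 without ID series A. For HttQ111 among Hdac2 WT mice they were 1 without the mice with 1 floxed allele and 1 without series A, and for HttQ111/+ Hdac2 KO against Htt+/+ Hdac2 WT 1 with only the libraries of the 2 groups. With date their medians were 0.40 (Htt+/+), 0.38 (HttQ111/+) and 0.40 (HttQ111/+ Hdac2 KO against Htt+/+ Hdac2 WT). Shares on nuclear members as a percent of counts on nuclear genes were 0.991%, 1.02%, 0.970% and 0.991%, larger because the divisor holds fewer counts. With date in place of surrogate variables, mt-Nd5 in Htt+/+ mice turned to 0.67 (adjusted p = 0.0424), Cox7a2l in HttQ111/+ mice to 0.026 (adjusted p = 0.922) and Idh3a in HttQ111/+ mice to -0.019 (adjusted p = 0.919). The cause was not tested.

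Extraction date nearly follows Hdac2 genotype, so their effects cannot be told apart across all libraries. Counts over introns and overlapping genes, and unique alignment of the mitochondrial genes, limit what the levels measure, and under 1 CPM few counts remain.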
